A study of Mus musculus with 7 samples.

Results

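The genes described here encode the cytochrome P450 enzymes of families 1 to 4 and the glutathione S-transferases, UDP-glucuronosyltransferases and sulfotransferases, measured on Affymetrix arrays in tumour cells of the mouse colon with and without a working Mex3a gene. They were taken by symbol (Cyp1 to Cyp4, Gst, Ugt1 and Ugt2, and Sult names) from probe sets that the platform annotation pairs with 1 gene, which gave 89 genes on 108 probe sets, of 17097 genes in all. Of these, 51 genes oxidise their substrates (the P450s) and 38 conjugate them. The 7 arrays were 4 labelled WT and 3 labelled KO, and values are log2 levels from RMA, a method that puts all arrays on a common scale and merges the probes of each set into a single value. All animals carried a Tomato allele of Mex3a, the Villin CreERT2 transgene, a tamoxifen-inducible Cre driven in gut epithelium by the Villin promoter, and APC fl/+, so that recombination removes 1 copy of this tumour suppressor. The other Mex3a allele was floxed (tom/flox, read here as the KO genotype) or intact (Tom/+, read here as WT), so that WT cells too had a single intact copy. Every animal received 4 shots of tamoxifen and then 2% dextran sulfate sodium, a colitis-inducing polymer, for 5 days, and adenomas were taken 2 months later, with ages not given in the sources used here. After dissociation with collagenase, the sort kept cells with the epithelial protein Epcam and with Tomato, which reads out the Mex3a promoter, and RNA from 2000 cells was amplified over 24 cycles. Whether each array is a separate animal is not stated, so a p-value here speaks of the spread among these arrays, part of which may be technical.

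Cytochrome P450 enzymes insert an oxygen atom into lipophilic drugs, hormones, bile acids, retinoids and fatty acids, with electrons passed to them by P450 reductase and cytochrome b5. Conjugating enzymes then join the product to glutathione, glucuronic acid or sulfate, which makes it soluble for export by transporters of the Abcc family. In the gut epithelium this chemistry handles food and microbial compounds, and many of its genes respond to the receptors Ahr, Nr1i2 (PXR) and Nr1i3 (CAR), to the oxidant sensor Nfe2l2 (NRF2) and to the epithelial factors Hnf4a and Cdx2.

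The arrays of scan batch 1 were WT replicates 1 and 2 and KO replicate 1, and those of scan batch 2 were WT replicates 3 and 4 and KO replicates 2 and 3. Mex3a itself averaged 7.33 ± 0.22 over the WT arrays (SD, n = 4) and 6.18 ± 0.11 over the KO arrays (SD, n = 3) on its brighter probe set, with no overlap. Where that probe set lies relative to the floxed part is unknown here. Epcam read between 11.875 and 11.995 across all arrays for its brighter probe set. Of the 13 leukocyte markers measured, Ptprc, Cd3e, Itgam, Adgre1 and S100a8 lay below the level filter and 8 above it, 4 positive and 4 negative between genotypes. Among these Lyz2 read 11.6 to 12.3 in WT and 12.4 to 12.5 in KO without overlap. Y-linked genes gave signal in WT replicate 2 and KO replicate 3, so the groups mix sexes. KO replicate 2 stood apart in the colonocyte markers, which differed from their means by 0.77 on average there and by -0.38 to 0.15 on the other arrays. Of these markers, Aqp4, Aqp8, Ceacam1, Ceacam20 and Emp1 were highest on other arrays. The mean of the 4 fibroblast markers above the filter stood apart in WT replicate 3 (0.68) and KO replicate 2 (0.60), with the other arrays at -0.35 to -0.047. Vim, one of the 4, was lowest in KO replicate 2. In sorted but bulk samples such as these, fewer cells of a type and less RNA per cell cannot be told apart. The number of arrays limits the precision throughout.

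Most of the oxidation genes were dim on this array. Genes in the lowest 25% by mean level, under 5.28 on the log2 scale, were not tested, and this left 12822 genes. Only 12 of the 51 P450 genes passed (23 of the 38 conjugation genes did), so that 76.5% of the P450 genes and 39.5% of the conjugation genes were below the filter. Passing were 7 of 29 Cyp2 genes, 1 of 6 Cyp3 genes, 4 of 13 Cyp4 genes and 0 of 3 Cyp1 genes. Of the conjugation families, 14 of 16 Gst genes, 3 of 9 Ugt genes and 6 of 13 Sult genes passed. Of the Gst genes taken here nearly all could therefore be tested, with Gsta2 and Gstp3 the only ones below the filter. The family itself is larger: Gsta1, Gsto2, Gstp2 and Gstt4, which lie next to members, are not among the 16. The filter ranks probe sets by brightness, which depends on the probes as well as on the RNA, so it does not show which genes were off.

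Between the genotypes 0 of the 35 members tested had an adjusted p under 0.05, and over all genes tested the share called was 0% (limma, Benjamini-Hochberg adjustment over 12822 genes). At an unadjusted limma p under 0.05, 2 members were higher in KO, Cyp4v3 and Ugt2b34, which is 5.71% of them, against 7.14% of all genes tested. At the same limit 0 members were lower in KO, against 4.26% of all genes tested. Both shares lie under those of the whole array. Without KO replicate 1, 7 members were higher at that limit, Gsta4, Gstm2, Gsto1, Gstt3 and Ugt2b35 in addition, against 13.4% of all genes tested. With limma's array weights, which gave KO replicate 1 the lowest weight, 3 members passed the adjusted test (Ugt2b34, Cyp4v3 and Gsta4, all higher in KO), 8.57% of them, against 10.7% of all genes tested. The 12 oxidation genes had log2 differences (KO minus WT) from -0.16 to 0.49 with a median of -0.0017, 6 positive and 6 negative. The 23 conjugation genes ran from -0.14 to 0.47 with a median of 0.0079, 13 positive and 10 negative. All genes tested had a median of -0.019, with 43.9% positive. Differences under 0.1 in size made up 22 of the 35, and 52.6% of all genes tested. The 95% interval of the difference lay within ±1 for all 35 members and within ±0.5 for 27 of them, so changes of more than 2-fold lie outside the interval of each member on the probe set that stood for it.

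**Figure D1:**
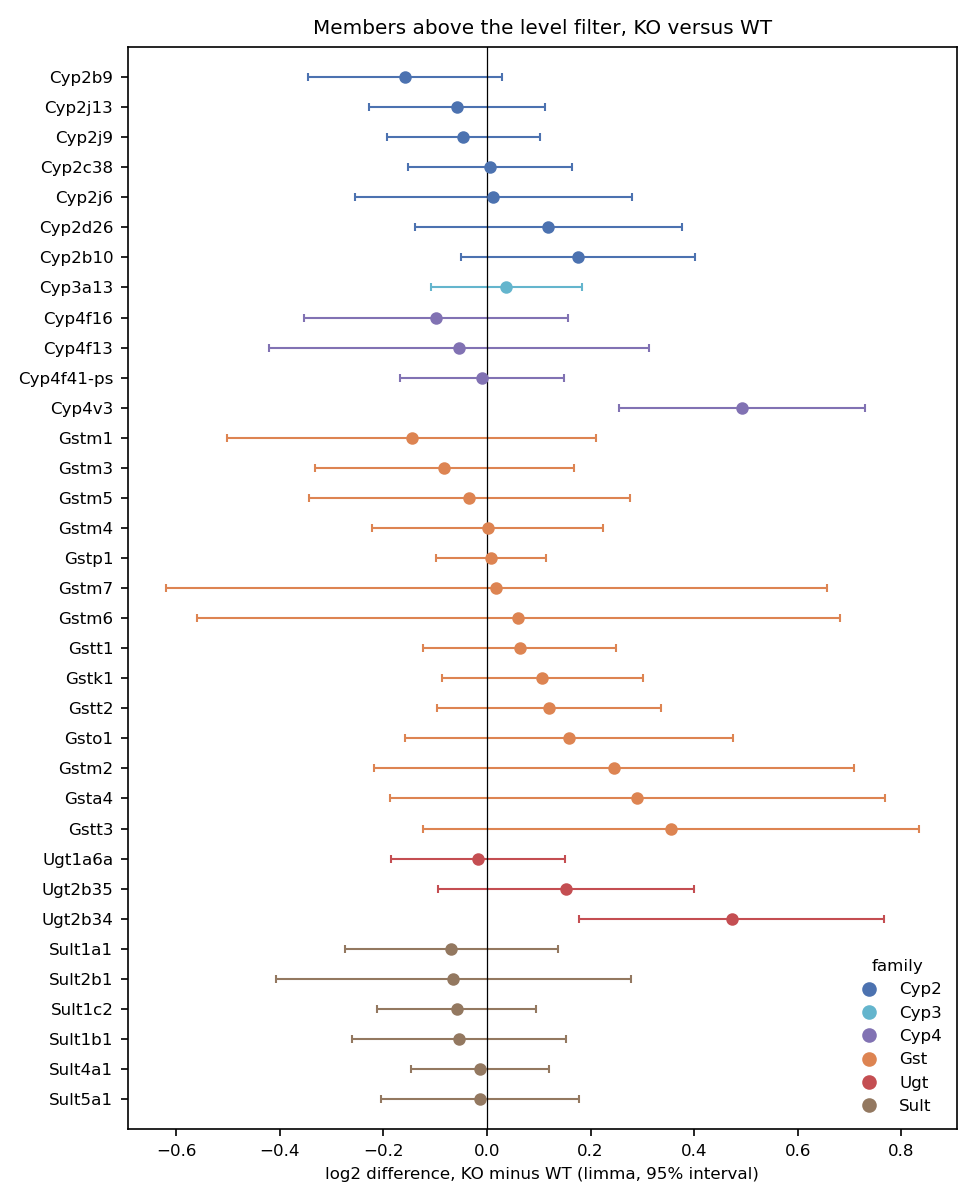
Log2 difference between KO (n = 3) and WT (n = 4) arrays for the 35 members above the level filter, ordered by family and then by size, with points for the limma estimate and bars for its 95% interval. The intervals of Cyp4v3 (0.25 to 0.73) and Ugt2b34 (0.18 to 0.77) are the only ones that do not cross 0, and 0 of 35 members passed the adjusted test.

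Cyp4v3, a P450 that hydroxylates fatty acids at their end, had the largest difference of the members. Its brighter probe set read 7.62, 7.56, 7.29 and 6.97 in WT replicates 1 to 4 and 8.12, 7.51 and 7.69 in KO replicates 1 to 3. KO replicates 1 and 3 lay above every WT array, while KO replicate 2 lay below WT replicates 1 and 2, so the groups overlap. The means were 7.36 ± 0.30 (SD, n = 4) and 7.77 ± 0.31 (SD, n = 3), and the difference with scan batch in the fit was 0.49 (SE 0.10), 1.41-fold, with a limma adjusted p of 0.329. The two-sided exact permutation p over the 35 splits of the arrays was 0.171. Restricted to exchanges inside a scan batch, the exact permutation p was 0.0556, the smallest that those 18 arrangements can give. Within the batches the difference was 0.53 (batch 1) and 0.47 (batch 2). The second probe set of the gene, in a dim range of 4.96 to 5.35, differed by 0.09 (SE 0.07). The probe sets of Cyp4v3 thus share a sign but not a size.

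Ugt2b34, which attaches glucuronic acid to its substrates and lies in the Ugt2b gene cluster of chromosome 5, was the one member whose groups did not overlap, 2.86% of the 35, against 2.68% of all genes tested that were higher in KO without overlap. For members lower in KO without overlap the count was 0, against 3.23% of all genes tested. Its levels were 9.41, 9.36, 8.95 and 8.66 in WT replicates 1 to 4 and 9.56, 9.51 and 9.45 in KO replicates 1 to 3. WT replicates 3 and 4, of scan batch 2, were the low ones, and WT replicate 1 lay just under the lowest KO array. The means were 9.10 ± 0.35 (SD, n = 4) and 9.51 ± 0.05 (SD, n = 3), with a difference of 0.47 (SE 0.13), 1.39-fold, and a limma adjusted p of 0.388. The exact permutation p was 0.114 over all splits and 0.0556 within scan batch, again the smallest possible. Within batch 1 the difference was 0.17 and within batch 2 it was 0.67. The second probe set read 9.34, 8.94, 8.83 and 8.51 in WT and 9.36, 9.18 and 9.18 in KO, differing by 0.39 (SE 0.13) with WT replicate 1 inside the KO range. Ugt2b35, from the same cluster, differed by 0.15 (SE 0.11; -0.098 in batch 1 and 0.32 in batch 2), and both lie in a family of close copies whose probe sets can share transcripts.

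Cyp2b10, the drug-inducible P450 that is the classical target of the receptor CAR, is measured by 3 probe sets, and all had a positive difference. The brightest, which stood for the gene in the test, read 6.28, 6.27, 6.20 and 6.46 in WT and 6.33, 6.70 and 6.47 in KO, differing by 0.18 (SE 0.10) with a limma adjusted p of 0.505. The middle one read 5.36, 5.58, 5.38 and 5.26 in WT and 5.51, 5.90 and 5.55 in KO, differing by 0.26 (SE 0.12). The dimmest read 5.04, 5.15, 4.89 and 4.94 in WT and 5.29, 5.71 and 5.24 in KO. Only on the last did the groups not overlap, with a difference of 0.41 (SE 0.12), an adjusted p of 0.494 in the limma fit over 45037 probe sets and an exact permutation p of 0.0286, the smallest the 35 splits can give. KO replicate 2 was the highest array on each of the 3 probe sets, and it was also the array with the highest mean of the colonocyte markers. Krt20, one of them, read 8.36 there and 5.98 to 7.00 on the other arrays. Aqp4, Aqp8, Ceacam1, Ceacam20 and Emp1, from the same list, were highest on other arrays. The part of the colonocyte signal in this result was not tested. On the brightest probe set the difference was 0.098 without KO replicate 2 and 0.091 without WT replicate 3. Cyp2b9, from the same cluster on chromosome 7, went the other way by -0.16 (SE 0.08, limma adjusted p = 0.474), and the 95% interval of its difference reached from -0.34 to 0.030. Within batch 1 it differed by 0.012 and within batch 2 by -0.27.

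**Figure D2:**
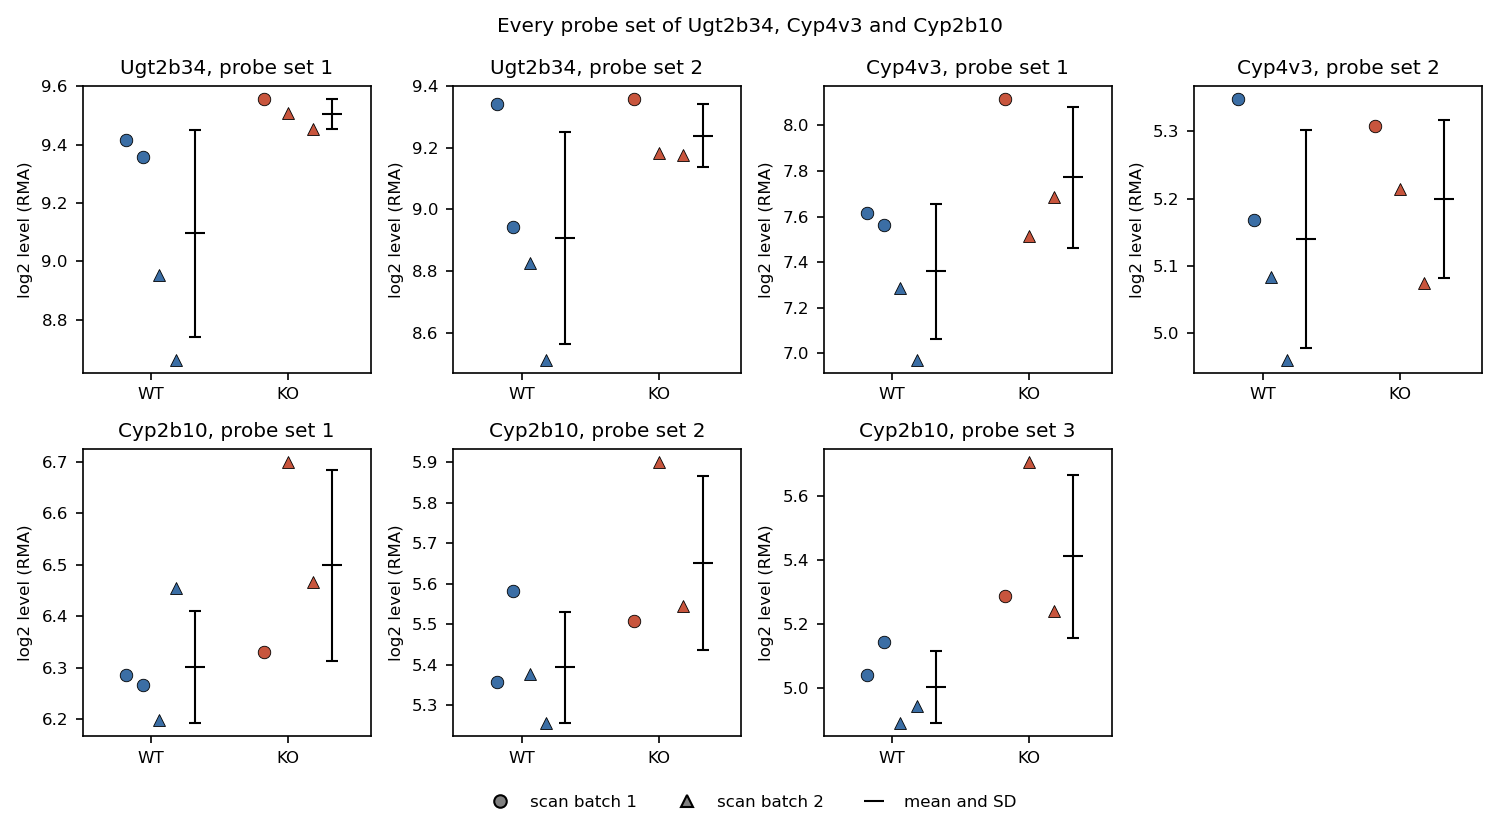
Log2 RMA level on every array for all probe sets of Ugt2b34, Cyp4v3 and Cyp2b10, WT in blue (n = 4) and KO in red (n = 3), circles for scan batch 1 and triangles for scan batch 2, with bars for mean and SD; each panel has its own axis range, which does not start at 0. On probe set 1 of Ugt2b34 the KO arrays sit between 9.45 and 9.56, above all WT arrays, and KO replicate 2 is the highest array on each Cyp2b10 probe set.

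Over all probe sets, 5 of the 108 of the members were higher in KO at an unadjusted limma p under 0.05, 4.63%, against 5.58% of all probe sets. They are both probe sets of Ugt2b34 and single ones of Cyp4v3, Cyp2b10 and Gsto1. At that limit 0 were lower in KO, against 3.81% of all probe sets. Groups did not overlap on 2 of the 108, both higher in KO (2.16% of all probe sets), and on 0 lower in KO (2.8% of all probe sets). Of the 15 member genes with several probe sets, 8 had the same sign on all of them and 7 did not. Of the 108, 14 carry a suffix (s_at or x_at) that marks probes shared between transcripts, and these include the brighter sets of Ugt2b34 and Cyp4v3.

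The 250 bases before the start of the genes with the leading values are printed here, since Ahr and NRF2 act through short elements that can lie in such regions. Elements of PXR and CAR were not searched, and elements further upstream lie outside the windows. The sequences are from RefSeq on GRCm38.p6, written 5′ to 3′ along the gene with the last base next to the most upstream listed start. Capitals mark 3 motifs searched on both strands: TGACNNNGC, the core of the antioxidant element bound by NRF2, GCGTG, the core of the element bound by AHR, and TATAAA, the TATA box.
Cyp4v3 promoter, chr8:45333164-45333413, minus strand: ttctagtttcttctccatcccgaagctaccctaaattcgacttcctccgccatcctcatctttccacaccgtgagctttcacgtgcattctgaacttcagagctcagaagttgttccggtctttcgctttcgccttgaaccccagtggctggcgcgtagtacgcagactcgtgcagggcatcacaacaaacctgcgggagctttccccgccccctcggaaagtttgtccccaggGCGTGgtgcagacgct
Ugt2b34 promoter, chr5:86906938-86907187, minus strand: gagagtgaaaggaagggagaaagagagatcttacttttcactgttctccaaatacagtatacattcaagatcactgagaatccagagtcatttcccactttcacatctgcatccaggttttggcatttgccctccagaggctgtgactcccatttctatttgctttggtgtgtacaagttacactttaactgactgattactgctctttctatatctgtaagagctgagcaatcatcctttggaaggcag
Cyp2b10 promoter, chr7:25897408-25897657, plus strand: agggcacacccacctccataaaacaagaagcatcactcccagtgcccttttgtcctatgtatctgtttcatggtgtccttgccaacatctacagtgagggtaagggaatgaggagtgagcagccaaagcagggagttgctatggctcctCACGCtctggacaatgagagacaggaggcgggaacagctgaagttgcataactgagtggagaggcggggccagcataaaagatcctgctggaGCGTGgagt
The Cyp4v3 window holds 1 match to the AHR core, 16 to 12 bases before the start. The Cyp2b10 window holds 2, at 101 to 97 bases on the reverse strand (written CACGC) and at 9 to 5 bases on the forward strand. In the Ugt2b34 window these letters were not found. Over all listed starts, 17 of the 74 members with a promoter entry (23.0%) held the AHR core, against 30.9% of 27025 genes. The NRF2 core was held by 4 of 74 (5.41%), against 11.5% of genes, and the TATA box by 23 of 74 (31.1%), against 14.3%. A match is a description of the letters and not a bound site.

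The remaining P450 genes above the filter had small differences. Cyp2d26 differed by 0.12 (SE 0.11; -0.069 in batch 1 and 0.24 in batch 2) and Cyp3a13, a steroid and drug oxidase and the one Cyp3 gene above the filter, by 0.038 (SE 0.063). The leukotriene hydroxylase family Cyp4f gave -0.098 (SE 0.11) for Cyp4f16 and -0.053 (SE 0.16) for Cyp4f13. On Cyp4f13 the KO arrays lay within 7.30 to 7.34 and the WT arrays between 7.05 and 7.81, with WT replicate 1 the highest.

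Among the 54 members below the filter, 0 had an unadjusted limma p under 0.05 in the fit over all probe sets, where 9.39% of all probe sets did, and their smallest adjusted p was 0.570. On their brightest probe sets the differences ran from -0.12 to 0.14, and a gene's 7 arrays spanned 0.21 in the median. The smallest p values belonged to Gstp3, with 0.14 (SE 0.071), Cyp2c70, with -0.12 (SE 0.062), Cyp4b1, with -0.089 (SE 0.050), and Ugt2a1, with -0.093 (SE 0.053). Spans over 0.5 were seen in 3 genes, Cyp1b1, Cyp2c55 and Cyp2d34. Cyp2c55 read 4.99 and Cyp2d34 5.06 in KO replicate 2, the highest array for both, while their other arrays lay at 4.37 to 4.51 and 4.41 to 4.72. The AHR-driven genes were among the dim ones: Cyp1a1 lay between 5.10 and 5.29 and Cyp1a2 between 4.84 and 5.01 over the 7 arrays. A dim probe set has a compressed scale, so these intervals bound the signal and not the RNA.

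The glutathione S-transferases spread more over the 7 arrays than the other conjugation families, with a median SD of 0.22 a gene against 0.15 for the Ugt and 0.11 for the Sult genes. The Gst genes averaged 5.70 to 11.57 and the Sult genes 5.30 to 6.69. Dim sets have a compressed scale, so these SDs were not compared at like levels. Of the 14 tested, 11 were positive (median difference 0.062), and 0 had an unadjusted limma p under 0.05. Gstp1, the pi-class enzyme, was the steadiest, averaging 11.57 ± 0.02 over the WT arrays (SD, n = 4) and 11.58 ± 0.06 over the KO arrays (SD, n = 3), and the 95% interval of its difference was -0.098 to 0.11. Gsta4, which detoxifies the lipid peroxidation product hydroxynonenal, read 9.33, 9.54, 9.06 and 8.93 in WT and 9.09, 9.82 and 9.59 in KO. KO replicates 2 and 3 were its highest arrays and KO replicate 1 one of its lower ones, and the difference was 0.29 (SE 0.21, limma adjusted p = 0.581). Gstt3, of the theta class, read 5.60, 6.30, 5.92 and 5.79 in WT and 5.91, 6.69 and 6.25 in KO, differing by 0.36 (SE 0.21, limma adjusted p = 0.526). Gstm2, of the mu class, read 6.20, 6.47, 5.92 and 5.95 in WT and 5.98, 6.44 and 6.72 in KO, differing by 0.25 (SE 0.20). In none of these 3 genes did the groups separate.

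Gsto1, the omega-class enzyme that reduces dehydroascorbate, showed how much the probe set matters. Its brighter set differed by 0.16 (SE 0.14), at 8.79 to 9.20 in WT and 8.93 to 9.32 in KO. Its other set read 7.90, 7.86, 7.05 and 7.06 in WT and 7.81, 8.16 and 7.96 in KO, differing by 0.58 (SE 0.21, 95% interval 0.097 to 1.06) with an adjusted p of 0.510 in the limma fit over all probe sets. On that set WT replicates 3 and 4 were low together, while the remaining 5 arrays lay between 7.81 and 8.16. The theta-class Gstt2 (0.12, SE 0.093) and Gstt1 (0.063, SE 0.080) and the kappa-class Gstk1 (0.11, SE 0.084) had smaller differences.

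Of the 14 Gst genes, 10 had opposite signs in the scan batches, while Gstk1 and Gstt2 were positive and Gstm1 and Gstm3 negative in both. For Gsta4 the KO array of batch 1 lay 0.34 below the mean of its WT arrays, while in batch 2 the KO arrays lay 0.71 above theirs. The same 2 values were -0.36 and 0.65 for Gstm2, -0.21 and 0.41 for Gsto1 and -0.034 and 0.62 for Gstt3. In batch 1, KO replicate 1 was below both WT arrays for 11 of the 23 conjugation genes (47.8%, all genes tested 34.3%). In batch 2, both KO arrays were above both WT arrays for 9 of the 23 (39.1%, all genes tested 28.1%). A negative difference in batch 1 with a positive one in batch 2 was found for 13 of the 23 conjugation genes (56.5%) and for 26.3% of all genes tested. The median difference of the conjugation genes was -0.10 in batch 1 and 0.068 in batch 2. Whether the batches differ in the genotype effect was not tested, and batch 1 holds 1 KO array. On average the goblet cell markers were highest in KO replicates 3 (0.54 above their mean) and 2 (0.41), lay at -0.17 in KO replicate 1 and ran from -0.81 to 0.24 in WT. Spdef was highest in WT replicate 3, and Agr2 in KO replicate 3 lay below WT replicates 2 and 3. Of the 8 goblet markers measured, 6 were above the filter, and Clca1 and Zg16 were not. Their part in the result was not tested. The Gapdh measure of RNA quality, a 3′ minus 5′ difference, read -0.239 to -0.209 on KO replicates 2 and 3 and WT replicate 2. Elsewhere it read -0.154 to -0.121. Gsta4, Gstm2, Gsto1 and Gstt3 were highest on the arrays with the lower readings, whereas Gstm6 and Gstm7 were highest in WT replicate 1. With this measure as a covariate, Gsta4 differed by -0.052, Gstm2 by -0.14, Gsto1 by -0.041, Gstt3 by 0.030 and Gstm7 by 0.197. The part of RNA quality was not tested further.

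**Figure D3:**
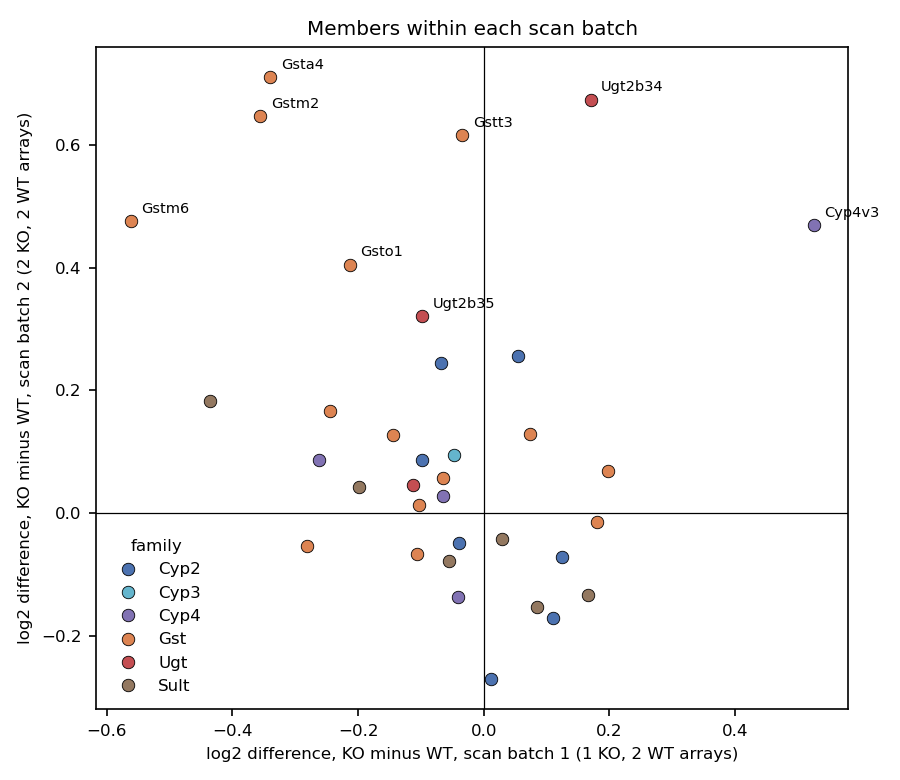
Each point is 1 of the 35 members, with its log2 difference within scan batch 1 (KO replicate 1 against WT replicates 1 and 2) on the horizontal axis and within scan batch 2 (KO replicates 2 and 3 against WT replicates 3 and 4) on the vertical axis, coloured by family. Cyp4v3 (0.53, 0.47) and Ugt2b34 (0.17, 0.67) lie to the upper right, and Gsta4 (-0.34, 0.71), Gstm2 (-0.36, 0.65) and Gsto1 (-0.21, 0.41) to the upper left.

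The mu-class genes, whose products conjugate epoxides and aromatic compounds, form a cluster on chromosome 3 in the order Gstm5, Gstm7, Gstm6, Gstm3, Gstm2, Gstm1 and Gstm4, and all 7 passed the filter. Their differences between genotypes ran from -0.14 to 0.25 with a median of 0.0014, 4 positive and 3 negative. The spread lay between single arrays. Gstm7 read 10.48, 9.46, 8.98 and 9.85 in WT and 9.82, 9.64 and 9.44 in KO, differing by 0.018 (SE 0.28). Gstm6 read 7.44, 7.01, 6.06 and 6.91 in WT and 6.66, 6.96 and 6.96 in KO, differing by 0.061 (SE 0.27). In both genes WT replicate 1 was the highest array and WT replicate 3 the lowest, and the KO arrays lay inside the WT range. Gstm1 read 10.44 in WT replicate 1 and 9.66 to 9.81 on the other 6 arrays. Gstm5 read 10.78 there and 10.02 to 10.42 elsewhere. WT replicate 1 was the highest array for 4 of the 7 mu-class genes, and their mean deviation from the gene means was 0.35 in it, -0.33 in WT replicate 3 and between -0.078 and 0.040 on the other arrays. Gstm2, Gstm3 and Gstm4 did not share the high value of WT replicate 1, where they read 6.20, 6.51 and 5.76. Mu-class genes are close copies, so neighbouring probe sets can take up each other's RNA. WT replicate 1 also had the highest level of the liver gene Alb, 10.1 against 8.37 to 9.24 elsewhere. The other hepatocyte genes did not share this: Ttr read 8.08 there and 7.89 to 8.62 elsewhere, Apob was at its lowest of the 7 arrays there, and Serpina1c and Fgb lay below the filter. The mean of the goblet markers above the filter was the lowest of the 7 arrays in WT replicate 1, while Atoh1 and Agr2 were lowest in WT replicate 4. WT replicate 3, the low array of the mu class, had the highest mean of the fibroblast markers above the filter. Col3a1 read 8.26 there, against 5.48 to 6.21 in the other WT arrays, and Col1a1 and Dcn were also highest of the WT arrays there. Vim went the other way, at 11.4 there and 11.6 in WT replicates 1 and 2. Col1a2, Lum and Pdgfra lay below the filter. KO replicate 2, with Col3a1 at 8.37, had a mu-class mean deviation of 0.0070. The part of these markers in the result was not tested.

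The promoters of the 4 mu-class genes whose highest array was WT replicate 1 are shown, with the same source, motifs and capitals as above.
Gstm5 promoter, chr3:107895604-107895853, plus strand: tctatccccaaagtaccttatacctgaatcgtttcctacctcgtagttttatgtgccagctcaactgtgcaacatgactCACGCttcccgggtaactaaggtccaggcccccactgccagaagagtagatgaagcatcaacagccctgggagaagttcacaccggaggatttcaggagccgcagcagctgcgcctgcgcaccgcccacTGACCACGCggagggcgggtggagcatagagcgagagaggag
Gstm7 promoter, chr3:107931818-107932067, minus strand: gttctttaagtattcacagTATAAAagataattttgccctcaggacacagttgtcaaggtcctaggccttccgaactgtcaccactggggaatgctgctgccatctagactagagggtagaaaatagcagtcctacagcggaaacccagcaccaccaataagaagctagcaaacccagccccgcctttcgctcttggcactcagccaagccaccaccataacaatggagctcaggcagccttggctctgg
Gstm6 promoter, chr3:107953467-107953716, minus strand: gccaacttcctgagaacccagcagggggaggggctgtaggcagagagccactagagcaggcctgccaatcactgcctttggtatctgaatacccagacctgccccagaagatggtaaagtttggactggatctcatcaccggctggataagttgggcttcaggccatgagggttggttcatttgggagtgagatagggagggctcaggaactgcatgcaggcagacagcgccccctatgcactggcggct
Gstm1 promoter, chr3:108017974-108018223, minus strand: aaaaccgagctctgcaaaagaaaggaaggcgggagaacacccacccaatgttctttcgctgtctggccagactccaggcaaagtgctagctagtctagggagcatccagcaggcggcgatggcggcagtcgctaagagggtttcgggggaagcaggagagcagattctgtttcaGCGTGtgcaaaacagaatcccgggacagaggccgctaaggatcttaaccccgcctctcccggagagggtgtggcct
The Gstm5 window holds the NRF2 core TGACCACGC at 42 to 34 bases before the start, whose last bases are also an AHR core on the reverse strand, and a second AHR core at 171 to 167 bases. The Gstm1 window holds 1 AHR core at 76 to 72 bases, and the Gstm7 window a TATA box at 231 to 226 bases. In the Gstm6 window these letters were not found, so no motif searched was common to the 4 windows. For Gstm1 and Gstm7 RefSeq lists 2 starts each and for Gstm6 it lists 3, and only the most upstream one is printed. Over all listed starts, Gstm7 also held the NRF2 core and Gstm1 a TATA box, while Gstm6 held none of the motifs searched.

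**Figure D4:**
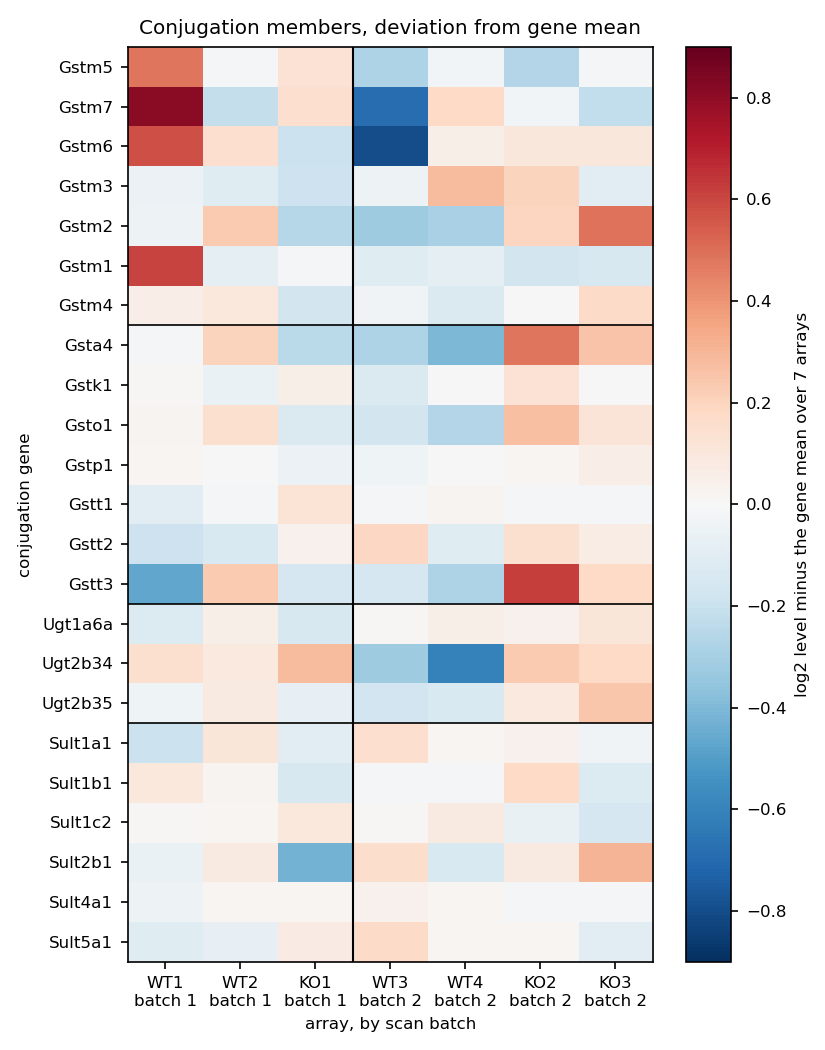
Log2 level minus the gene's mean over the 7 arrays for the 23 conjugation members above the filter, arrays ordered by scan batch and the mu-class genes at the top in their order on chromosome 3. The mu-class mean deviation is 0.35 in WT replicate 1 and -0.33 in WT replicate 3, and Gsta4, Gstm2 and Gsto1 are higher in KO replicates 2 and 3 than in the WT arrays of the same batch.

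All 6 sulfotransferases tested had a negative difference, and all were small, from -0.069 to -0.013 with a median of -0.056, against a median SE of 0.086. Their mean levels ran from 5.30 (Sult1c2) to 6.69 (Sult2b1), and the filter lay at 5.28. On so dim a range the scale is compressed, so small differences need not mean steady RNA. Sult1a1, which sulfates phenols, had -0.069 (SE 0.089), the phenol and thyroid hormone enzyme Sult1b1 -0.054 (SE 0.089) and Sult1c2 -0.058 (SE 0.066). Sult2b1, which sulfates cholesterol, had the largest spread, with KO arrays at 6.26, 6.77 and 7.00 around WT arrays at 6.55 to 6.85. Within batch 2 the sulfotransferases gave 2 positive and 4 negative differences, so the shared sign is not found in each batch. Ugt1a6a, which glucuronidates small phenols, differed by -0.017 (SE 0.073) on one probe set and by 0.17 (SE 0.12) on the other.

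The other genes of the pathway were counted in lists chosen by role, and 0 of their members had an adjusted p under 0.05. With array weights 5 of the 74 genes tested on these lists, the members aside, passed the limma test (6.76%, all genes tested 10.7%): Cyb5b, Cyb5r3, Mgst2, Cyb5r1 and Akr1c13, with adjusted p from 0.0269 to 0.0485. Of the 6 electron donors tested (Por and Fdxr have no single-gene probe set here), 2 were higher and 2 lower in KO at an unadjusted limma p under 0.05, where 7.14% and 4.26% of all genes tested were, and the list's median was 0.012. Cyb5b, the cytochrome b5 of the outer mitochondrial membrane, read 11.63, 11.56, 11.69 and 11.74 in WT and 11.31, 11.46 and 11.53 in KO. All KO arrays lay below all WT arrays, with a difference of -0.25 (SE 0.045), a limma adjusted p of 0.329 and an exact permutation p of 0.0286, the smallest possible. Cyb5r3, the reductase that feeds electrons to cytochrome b5, was likewise lower without overlap, averaging 10.25 ± 0.16 over the WT arrays (SD, n = 4) and 10.01 ± 0.07 over the KO arrays (SD, n = 3), which differ by -0.27 (SE 0.078, limma adjusted p = 0.391). Over the 19 alternatives described below, the difference ran from -0.28 to -0.059 for Cyb5b and from -0.35 to -0.092 for Cyb5r3. The sign thus held in both genes, but the size depended on the processing. The higher ones were Fdx1, the ferredoxin of mitochondrial P450s, with 0.30 (SE 0.10), and Cyb5r1, with 0.24 (SE 0.095). Cyb5a, the other cytochrome b5 tested, differed by 0.062 (SE 0.094) and Cyb5r2 by -0.038 (SE 0.058), so a lower level was not common to the cytochrome b5 genes.

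For cofactor supply, 7 of 11 genes had a positive difference (median 0.071), and 1 was higher in KO at an unadjusted p under 0.05. Papss1, which makes the sulfate donor of the sulfotransferases, read 8.19, 8.36, 8.34 and 8.30 in WT and 8.61, 8.53 and 8.41 in KO, differing by 0.22 (SE 0.093, limma adjusted p = 0.432) without overlap. Ugdh, which makes the glucuronic acid donor, differed by 0.16 (SE 0.076), with each KO array above the WT arrays of its batch. Among the other conjugating enzymes, 6 of 8 were positive (median 0.080), and 1 was higher at that limit. The microsomal glutathione transferase Mgst2 read 8.47, 8.71, 8.66 and 8.11 in WT and 8.69, 9.06 and 9.14 in KO, differing by 0.47 (SE 0.18, limma adjusted p = 0.414), and KO replicate 1 lay inside the WT range. Within batch 1 the difference was 0.099 and within batch 2 it was 0.71. Mgst1 differed by 0.40 (SE 0.26; -0.18 in batch 1 and 0.79 in batch 2), with WT replicate 4 low at 6.26 and the other arrays at 6.90 to 7.71.

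Of the 21 other oxidising and hydrolysing enzymes tested, 9 were positive and 12 negative (median -0.0077), and 1 was lower at that limit. Aldh2, the mitochondrial aldehyde dehydrogenase, averaged 11.28 ± 0.12 over the WT arrays (SD, n = 4) and 11.01 ± 0.17 over the KO arrays (SD, n = 3) without overlap, differing by -0.28 (SE 0.097, limma adjusted p = 0.414), and by -0.12 without KO replicate 1. Ephx2, the soluble epoxide hydrolase, differed by -0.15 (SE 0.066), and by -0.23 without KO replicate 1. The regulators gave 5 positive and 9 negative differences, with a median of -0.10 against -0.019 for all genes tested, and 1 was lower at that limit. Rxra, the partner of the receptors PXR and CAR, had -0.24 (SE 0.096, limma adjusted p = 0.426). Hnf4a had 0.30 (SE 0.14, with -0.0022 in batch 1 and 0.495 in batch 2), while Ahr had -0.11 (SE 0.13), Nr1i2 -0.14 (SE 0.14) and Nfe2l2 0.19 (SE 0.15). The receptor CAR, Nr1i3, was below the filter.

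Target lists of the regulators had medians near 0. Of 10 Nrf2 targets tested, 5 were positive and 5 negative (median -0.0083), and 1 was lower at that limit, with the ferritin chains Ftl1 at -0.12 (SE 0.051) and Fth1 at -0.083 (SE 0.039). Of 8 Ahr targets, Cyp1a1, Cyp1a2, Cyp1b1, Ahrr and Nqo1 were below the filter, and the 3 tested lay between -0.017 and -0.0081, Aldh3a1 at -0.0097 (SE 0.073). Of the 6 efflux pumps tested, 2 were positive and 4 negative (median -0.074), and 0 had an unadjusted limma p under 0.05. Abcc1, which exports glutathione conjugates, read 9.77 to 10.1 in WT and 9.67 to 9.74 in KO, differing by -0.20 (SE 0.087, limma adjusted p = 0.440), and by -0.13 without KO replicate 1. Abcc5 had -0.21 (SE 0.15), and 0.034 without KO replicate 1.

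**Figure D5:**
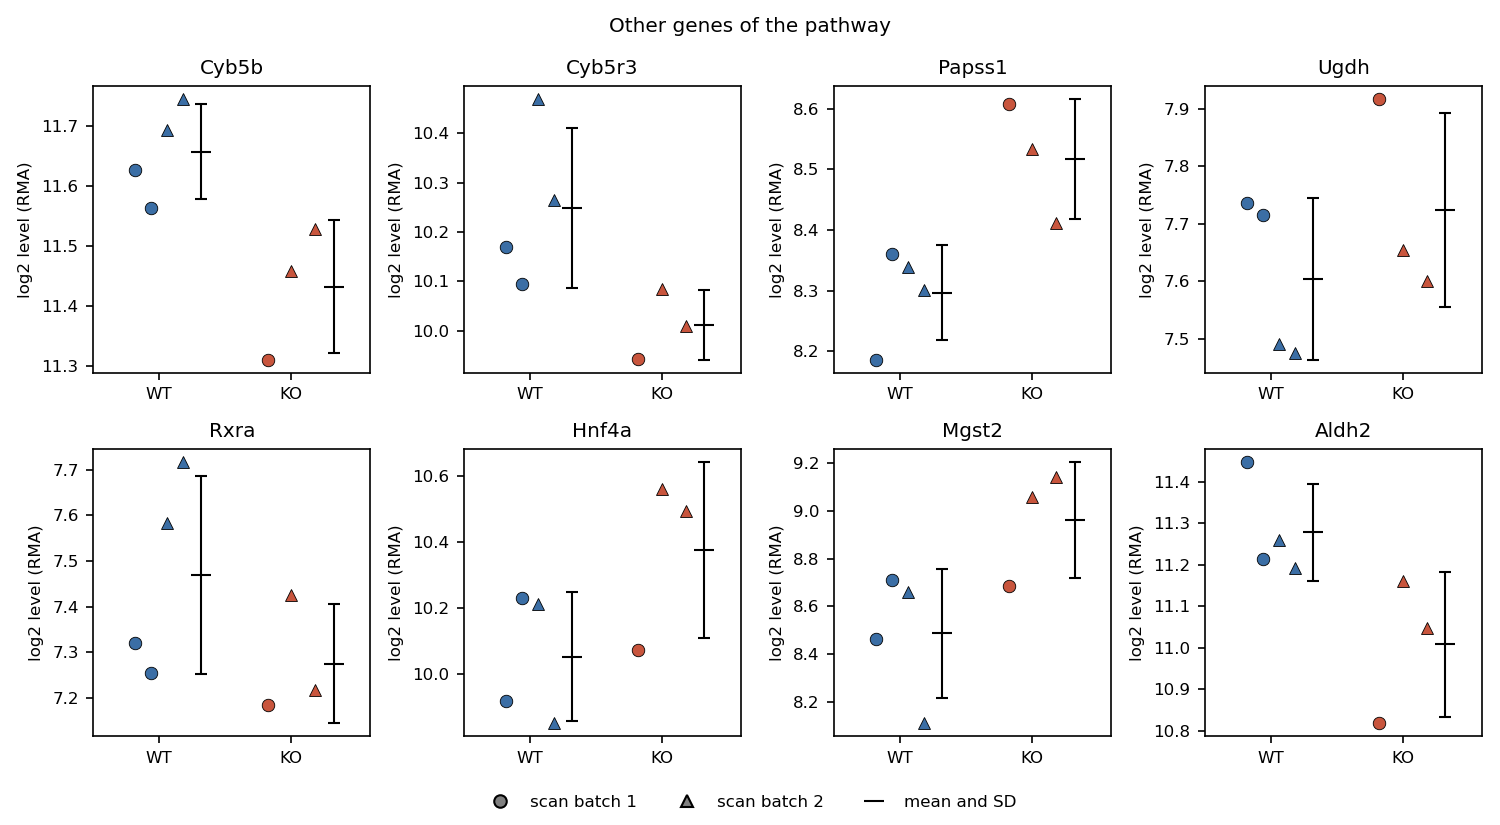
Log2 RMA level on every array for 8 other genes of the pathway, WT in blue (n = 4) and KO in red (n = 3), circles for scan batch 1 and triangles for scan batch 2, with bars for mean and SD; each panel has its own axis range, which does not start at 0. The KO arrays lie below all WT arrays for Cyb5b, Cyb5r3 and Aldh2 and above them for Papss1, while Mgst2, Hnf4a, Rxra and Ugdh overlap.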

How the data were processed

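Expression of Epcam+ Tomato+ adenoma cells was measured on 7 arrays (4 WT, 3 KO). The authors deposited RMA values on the log2 scale, per the submitters' processing notes; the RMA version and any correction for batch were not given in the sources used here. Besides 104 controls, the 45141 probe sets comprised 28898 that the platform annotation ties to a single gene, 551 tied to several genes and 15588 tied to none. Gene numbers of 28689 of them matched RefSeq (GRCm38.p6), and 0 symbols were updated. RMA compresses low levels, so fold changes of dim genes are understated, and levels of different probe sets were not compared.

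Each of the 17097 genes was represented by its brightest probe set on average, and the lowest 25% of genes were left out. KO was compared with WT in limma 3.58.1 (R 4.3.3; lmFit, eBayes with trend, scan batch as a fixed term, 4 residual degrees of freedom, two-sided, Benjamini-Hochberg adjustment over all 12822 genes). Genes below the filter and single probe sets come from the same model over 45037 probe sets. Exact permutation tests used the 35 splits of the arrays, or 18 within scan batch. Printed differences are adjusted for scan batch and printed means are not, so they can disagree slightly. In 5 simulated runs of this comparison with 200 of 12822 genes changed, recovery was 52.4% for log2 changes of 0.5, 89% for changes of 1 and 99.6% for changes of 2, with 5.21% of calls false. The simulated noise was independent between genes and arrays, with equal array quality and no batch shift, so recovery in the real arrays may be lower. Mex3a, at -1.13 on its brighter probe set, had a limma adjusted p of 0.334 in the fit over all probe sets. The alternatives, 19 in all, were other filters, probe set rules, array weights, single batches, covariates and leaving out arrays. Leaving out KO replicate 1 gives the same differences as scan batch 2 alone, so they are not separate checks.

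The members, gene lists and tests were chosen with earlier results of these data known. The named genes are the members with an unadjusted p under 0.05, the 3 of smallest p per family, the 6 of largest SD, the 4 of smallest p below the filter and the 2 of smallest p per pathway list. Other genes named were chosen after their values were seen. No list was given a test of its own.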

Additional observations from a re-analysis of the deposited data

Results flagged for a closer look

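In the 4 WT arrays, 1 array stood outside the others by Dixon's test for 4 of the 35 members tested. For values without ties, chance marks about 1 group in 20. Ties were present in 49 of the 108 member probe sets, so that rate is only a rough guide here. The share flagged among all genes was not counted, so whether 4 of 35 is an excess was not tested. WT replicate 1 read 10.4 for Gstm1, while the other WT arrays lay at 9.72 to 9.75. WT replicate 4 was the high array for the other three genes: it read 6.85 for Gstm3 (others 6.45 to 6.51), 5.72 for Cyp2j9 (others 5.53 to 5.54) and 5.38 for Sult1c2 (others 5.31 to 5.32). The KO group of 3 arrays was not tested in this way.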

How the results depend on the processing

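The count of genes called was 0 in the fit as described. It was 1370 (977 higher, 393 lower) with limma's array weights, which gave KO replicate 1 the lowest weight of the 7 arrays, 0.297, and KO replicate 2 the highest, 3.04. It lay between 0 and 2 with an array left out, at 2 without WT replicate 2 and 2 without WT replicate 4. Of the members, 3 were called with array weights and 0 under the other alternatives: Ugt2b34 (0.54, adjusted p = 0.0269), Cyp4v3 (0.37, adjusted p = 0.0477) and Gsta4 (0.59, adjusted p = 0.0437). Over the 19 alternatives the limma adjusted p ranged from 0.0269 to 0.991 for Ugt2b34, from 0.0477 to 0.991 for Cyp4v3 and from 0.0437 to 0.991 for Gsta4. The median difference of the oxidation members was -0.0407 within scan batch 1, 0.0568 within scan batch 2 and -0.0404 with the mean of all probe sets of a gene, and ran from -0.0237 to 0.0568 with an array left out. That of the conjugation members was -0.104 within scan batch 1 and ran from -0.0138 to 0.0678 with an array left out. Members higher in KO at an unadjusted limma p under 0.05 numbered 2 in the fit as described (5.71%, all genes tested 7.14%). Without KO replicate 1 they numbered 7 (20%, all genes tested 13.4%). Ugt2b34 and Cyp4v3 were positive under all 19 alternatives, with 0.35 to 0.67 and 0.42 to 0.58 when an array was left out. With the Gapdh measure of RNA quality as a covariate, 11 of the 38 named genes tested turned sign, among them Gsta4 (-0.052), Gstm2 (-0.14), Gsto1 (-0.041), Ugt2b35 (-0.010) and Mgst1 (-0.0087), and Gstt3 was at 0.030, Hnf4a at 0.080 and Mgst2 at 0.22; the cause was not tested. Of the 38, 15 kept their sign in all alternatives, and 29 moved by over 1.5 times or turned when an array was left out. Within batch 1 the lone KO array is assumed to vary like the WT arrays. No paired analysis was possible because the replicate numbers only follow the order of the samples and the labels pair none of them. Probe sets near background limit what can be seen of the 54 members below the filter.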
